A study of Mus musculus with 8 samples.

Results

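The genes described here are 10 members of the BCL2 family, which sets whether a cell under stress survives or dies by the mitochondrial route of apoptosis. They were chosen by symbol from a table of 15576 genes: the pro-survival genes Bcl2, Bcl2l1 and Mcl1, the pore-forming effectors Bax and Bak1, and the BH3-only genes Bcl2l11, Bad, Bid, Bbc3 and Bmf. All 10 were in the table and all 10 passed the filter on low counts, as did 11937 genes in total. Their RNA was measured by bulk RNA sequencing of sorted mouse bone marrow cells, in 4 CML libraries and 4 CML-TKI libraries.

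Both groups came from C57BL/6 mice with chronic myeloid leukemia (CML) driven by a BCR-ABL transgene. The transgene is switched on when tetracycline is withdrawn, through the tetracycline-controlled transactivator SCL-tTA, active in stem and progenitor cells. The CML mice were labelled untreated. The CML-TKI mice received imatinib, a tyrosine kinase inhibitor (TKI) of ABL, KIT and PDGF receptors. The label dose was 400 mg/kg, by gavage on alternate days, for 4 weeks in one label field and 30 days in another. The study text gives a lower dose for its RNA-seq comparison of stem cells from CML mice, and both doses in its methods. The dose of these libraries is therefore stated differently in the labels and the study text. All 8 libraries carried the same sort label, Lin-Sca1+cKit+Flt3-CD150-CD48+, whereas the study text defines its leukemic stem cells (LSCs) as CD150+ and CD48-. The labels give neither the age of these mice nor whether each library is a separate animal, so p-values measure the spread between libraries, which may be technical. The libraries are named by the numbers in the column headers, where the fourth CML column is CML 5, a number that no sample label carries.

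In this pathway BH3-only proteins act as sensors. BIM (Bcl2l11), PUMA (Bbc3), BID, BAD and BMF bind the pro-survival proteins BCL2, BCL-XL (Bcl2l1) and MCL1, and some of them also activate BAX and BAK directly. Activated BAX and BAK open the outer mitochondrial membrane, cytochrome c leaves, and the APAF1 apoptosome then activates caspases. In hematopoietic cells MCL1 is needed for stem cell survival, BCL-XL for late red cell and platelet survival, and BIM is held low by growth factor and kinase signalling, in part through FOXO3 and ERK. The comparison asks how the RNA levels of these genes stood in the sorted cells of imatinib-treated mice, beside those of untreated mice.

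The BH3-only genes Bcl2l11 and Bbc3 carry in a promoter the letters of a FOXO binding motif, GTAAACA on either strand, and are shown because the largest differences of the family in either direction, given below, were those of the same genes. Promoters are windows of 250 bases before to 50 after a RefSeq start site (GRCm38.p6, the mm10 assembly). Capitals mark the motif.
Bcl2l11, chr2:128125788-128126087, plus strand: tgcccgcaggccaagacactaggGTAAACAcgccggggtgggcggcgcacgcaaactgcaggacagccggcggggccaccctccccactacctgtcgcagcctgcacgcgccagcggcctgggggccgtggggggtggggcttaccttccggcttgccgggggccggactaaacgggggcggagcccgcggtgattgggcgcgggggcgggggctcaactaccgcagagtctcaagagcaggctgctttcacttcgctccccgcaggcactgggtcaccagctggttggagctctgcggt
Bbc3, chr7:16310011-16310310, plus strand: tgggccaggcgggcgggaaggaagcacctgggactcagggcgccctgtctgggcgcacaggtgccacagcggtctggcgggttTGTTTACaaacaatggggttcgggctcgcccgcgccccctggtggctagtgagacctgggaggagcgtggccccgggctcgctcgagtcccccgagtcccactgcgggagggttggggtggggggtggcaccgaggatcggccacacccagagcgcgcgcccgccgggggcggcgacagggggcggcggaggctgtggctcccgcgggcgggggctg
In Bcl2l11 the motif lay 227 to 221 bases before the start, and in Bbc3 its reverse complement, TGTTTAC, lay 167 to 161 bases before it. The motif occurred in 3.65% of 32851 promoters of the same length and in a promoter of 4.05% of 27025 genes. Bcl2l11 and Bbc3 each have further windows, so the share per gene is the nearer one. They were picked by their values and went in opposite directions, so the matches are no test of a link to the differences.

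The 10 genes had 18 such windows between them, and 7 motifs were searched on both strands. The E2F motif TTTCGCGC was found once, as GCGCGAAA in a Bcl2l1 window (chr2:152830668-152830967, minus strand, 145 to 138 bases before the start), and is held by 0.323% of promoters. The STAT motif TTCNNNGAA (8.30% of promoters), the CREB motif TGACGTCA (1.79%), the AP-1 motif TGACTCA (5.20%), the EGR1 motif GCGTGGGCG (0.612%) and the p53 half-site pair (0.0731%) were not in these windows. These matches describe letters and not binding.

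In the quasi-likelihood test of edgeR, with p-values adjusted by the Benjamini-Hochberg method over 11937 genes, 0 of the 10 genes passed an adjusted p of 0.05 as higher in CML-TKI, against 6.29% of all genes, and 0 passed as lower, against 3.93%. At an unadjusted p under 0.05 there were 3 of the 10, Bcl2l11, Bid and Bbc3, against 25.7% of all genes. DESeq2 called 2 higher (Bcl2l11, Bid) and 0 lower, where it called 9.75% of all genes higher and 7.94% lower. With library quality weights limma-voom called 3 higher (Bcl2l11, Bid, Bak1) and 2 lower (Bcl2, Bcl2l1), against 10.5% and 11.0% of all genes. The log2 fold change was above 0 for 4 genes and below 0 for 6, with a median of -0.09, and the median over all genes tested was -0.00026. Values below are counts scaled to CPM (counts per 1e6) after TMM normalization unless another scale is named.

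**Figure D1:**
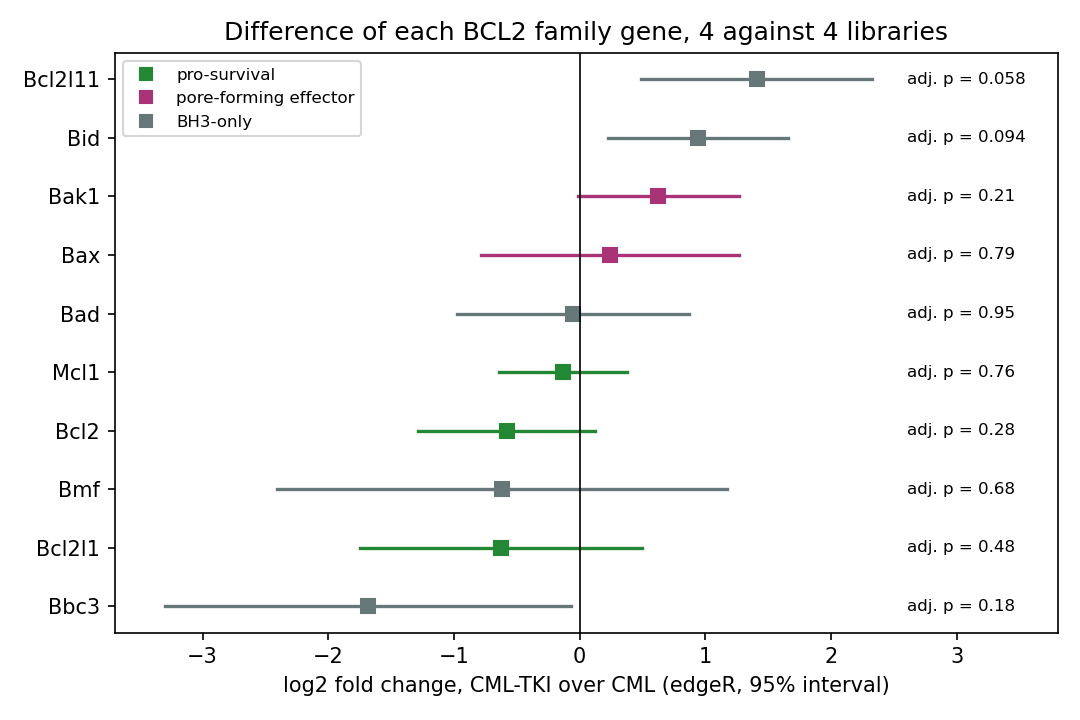
Log2 fold change (CML-TKI over CML) of each of the 10 genes with its 95% interval and adjusted p from edgeR, 4 against 4 libraries, coloured by role. The interval lies wholly above 0 for Bcl2l11 and Bid and wholly below 0 for Bbc3, and the adjusted p is over 0.05 for each gene (0.0581 for Bcl2l11, the lowest).

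Bcl2l11 encodes BIM, a BH3-only activator that binds every pro-survival member. It stood at 20.2, 26.6, 20.9 and 25.6 CPM in CML 1, 2, 3 and 5, and at 23.9, 63.5, 110.7 and 52.6 CPM in CML-TKI 1, 2, 3 and 4. CML-TKI 2, 3 and 4 lay above every CML library, while CML-TKI 1 lay inside the CML range, so the groups overlapped. The means were 23.3 ± 3.27 CPM (SD, n = 4) and 62.7 ± 36.1 CPM (SD, n = 4), a log2 fold change of 1.41 (SE 0.41, 95% interval 0.49 to 2.32) that missed the threshold with an edgeR adjusted p of 0.0581. Without CML-TKI 1 the log2 fold change was 1.67 and passed it (edgeR adjusted p = 0.00547). Calls over all genes also became more frequent without that library, from 6.29% to 9.64% higher and from 3.93% to 11.0% lower. With the other libraries left out in turn the adjusted p stayed over 0.05, up to 0.160 without CML 1, and the lowest log2 fold change was 1.01, without CML-TKI 3.

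Bid encodes BID, which caspase-8 cleaves to carry the death receptor signal to mitochondria. It stood at 21.9, 31.1, 23.4 and 21.3 CPM in CML 1, 2, 3 and 5 and at 24.3, 53.6, 58.1 and 52.8 CPM in CML-TKI 1 to 4. As for Bcl2l11, CML-TKI 1 was inside the CML range and the other 3 treated libraries were above it. The means were 24.4 ± 4.52 CPM (SD, n = 4) and 47.2 ± 15.4 CPM (SD, n = 4), with a log2 fold change of 0.94 (SE 0.32, 95% interval 0.23 to 1.66, edgeR adjusted p = 0.0938). Without CML-TKI 1 it was 1.16 and passed the threshold (edgeR adjusted p = 0.0111). The annotated exons of Bid share 628 bases with Bcl2l13 on the opposite strand, and the counting is not stated to use strand, so reads from this stretch cannot be told apart. Bcl2l13 was below its CML libraries in every CML-TKI library (127 ± 6.19 CPM in CML, 94.3 ± 7.82 CPM in CML-TKI, SD, n = 4 each), with an edgeR adjusted p of 0.153.

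Bbc3 encodes PUMA, a BH3-only protein best known as a p53 target. It stood at 10.8, 9.07, 7.73 and 16.8 CPM in CML 1, 2, 3 and 5 and at 6.27, 0.310, 3.29 and 3.64 CPM in CML-TKI 1 to 4. Every CML-TKI library was below every CML library, and Bbc3 was the 1 member of 10 whose groups did not overlap. Of all genes tested 13.1% did not overlap in this direction and 10.3% in the other, where there were 0 members. The estimated counts in CML-TKI 1 to 4 were 33, 1, 3 and 14, so CML-TKI 2 and 3 did not exceed 3 counts, the upper limit that a count of 0 allows. The means were 11.1 ± 3.99 CPM (SD, n = 4) and 3.38 ± 2.44 CPM (SD, n = 4), and the log2 fold change of -1.68 (SE 0.72, 95% interval -3.30 to -0.07) had an unadjusted p of 0.0424 and an adjusted p of 0.176 by edgeR. It did not pass with any single library left out, where the log2 fold change ranged from -2.27 to -1.29 and the edgeR adjusted p from 0.0640 to 0.341.

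Bad and Bmf, whose products link growth factor and anchorage signals to BCL2 proteins, were the remaining BH3-only genes. Bad stood at 13.6, 9.65, 11.4 and 14.0 CPM in CML 1, 2, 3 and 5 and at 8.93, 18.9, 7.67 and 10.9 CPM in CML-TKI 1 to 4. The CML-TKI libraries reached beyond the CML range on both sides, and the log2 fold change of -0.05 (95% interval -0.98 to 0.87, edgeR adjusted p = 0.954) turned positive under 7 of the alternatives tried. Exons of Bad share 524 bases with Gpr137 on the opposite strand. Of the other members, exons of Bak1 share 614 bases with Ggnbp1 (55 counts in all libraries) and those of Bcl2 558 bases with D630008O14Rik, both on the opposite strand, and those of Bax 192 bases with Gm45808 on the same strand. Bmf stood at 3.95, 4.83, 7.92 and 7.56 CPM in CML 1, 2, 3 and 5 and at 3.799, 8.99, 0 and 2.08 CPM in CML-TKI 1 to 4. It had 0 counts in CML-TKI 3, which allows up to 3.29 CPM at the depth of that library, and the log2 fold change was -0.62 (95% interval -2.41 to 1.17, edgeR adjusted p = 0.680). It was -1.40 without CML-TKI 2 and -0.29 without CML-TKI 3.

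**Figure D2:**
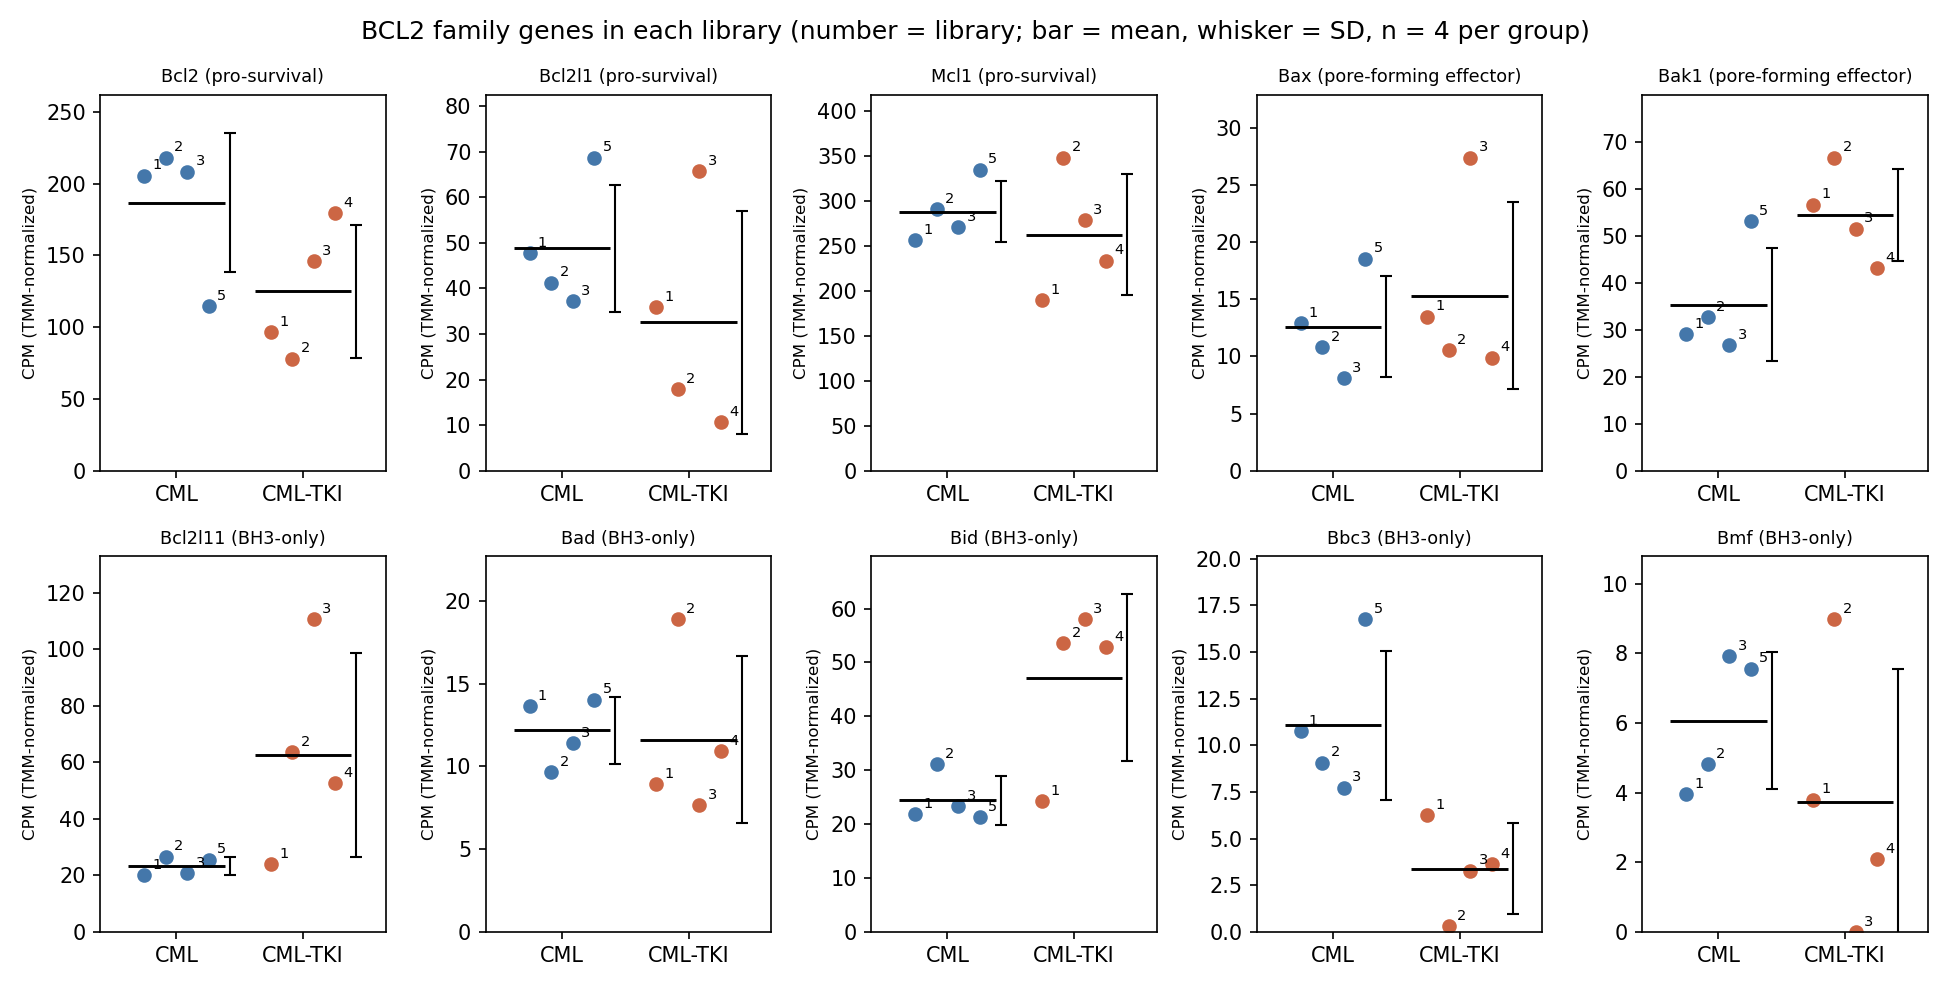
CPM of each of the 10 genes in every library (points, numbered by library) for CML and CML-TKI, with the group mean (bar) and SD (whisker, n = 4, drawn down to 0 at most). CML-TKI 1 lies among the CML libraries for Bcl2l11 (23.9 CPM) and Bid (24.3 CPM), and CML 5 is the highest CML library in 6 of 10 panels.

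Among the pro-survival genes, Mcl1 had the highest level per length in all 8 libraries. MCL1 is a short-lived protein, so its RNA need not follow its protein. Mcl1 stood at 256, 290.3, 270.2 and 334 CPM in CML 1, 2, 3 and 5 and at 189, 348, 278 and 233 CPM in CML-TKI 1 to 4. The groups overlapped widely, and the log2 fold change was -0.13 (SE 0.23, 95% interval -0.64 to 0.37, edgeR adjusted p = 0.761), an interval that excludes a change of 2-fold in either direction before multiple testing is considered.

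Bcl2, the target of venetoclax, stood at 206, 218, 208 and 115 CPM in CML 1, 2, 3 and 5 and at 96.5, 78.1, 146 and 179 CPM in CML-TKI 1 to 4. CML 1, 2 and 3 lay above all 4 treated libraries and CML 5 lay among them. The log2 fold change was -0.58 (SE 0.31, 95% interval -1.28 to 0.12, edgeR adjusted p = 0.280), and -0.77 without CML 5. The CML libraries left in that fit lay far closer to each other over all genes than to CML 5.

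Bcl2l1, which encodes BCL-XL, stood at 47.8, 41.3, 37.3 and 68.7 CPM in CML 1, 2, 3 and 5 and at 35.9, 17.97, 65.8 and 10.7 CPM in CML-TKI 1 to 4. CML-TKI 1, 2 and 4 lay below every CML library and CML-TKI 3 lay near the top of the CML range. The log2 fold change was -0.63 (SE 0.50, 95% interval -1.75 to 0.50, edgeR adjusted p = 0.477), and with 1 library left out it ranged from -0.33 without CML-TKI 4 and -0.42 without CML 5 to -1.16 without CML-TKI 3 (edgeR adjusted p = 0.124). CML-TKI 3 also had the highest sum over 7 erythroid genes, 24086 CPM, against 221 to 883 CPM in the other CML-TKI libraries and 171 to 203 CPM in CML. The mitophagy receptor gene Bnip3l, which is strongly expressed in maturing red cells, was at 410 CPM there and at 71.5 to 144 CPM in the other 7 libraries. The part of erythroid RNA in the Bcl2l1 value was not tested.

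The effector genes Bax and Bak1 encode the proteins that form the mitochondrial pore. Bak1 stood at 29.01, 32.6, 26.7 and 53.1 CPM in CML 1, 2, 3 and 5 and at 56.6, 66.6, 51.5 and 43.2 CPM in CML-TKI 1 to 4. All 4 treated libraries were above CML 1, 2 and 3, and CML 5 lay among them. The log2 fold change was 0.62 (SE 0.29, 95% interval -0.02 to 1.27, edgeR adjusted p = 0.206), and 0.88 without CML 5 (edgeR adjusted p = 0.0694). As for Bcl2, that fit keeps only the CML libraries that lay close together over all genes. Bax stood at 12.9, 10.8, 8.12 and 18.6 CPM in CML 1, 2, 3 and 5 and at 13.5, 10.5, 27.4 and 9.89 CPM in CML-TKI 1 to 4. Only CML-TKI 3 lay outside the CML range, and the log2 fold change of 0.24 (SE 0.46, 95% interval -0.78 to 1.27, edgeR adjusted p = 0.789) became -0.15 without it.

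**Figure D3:**
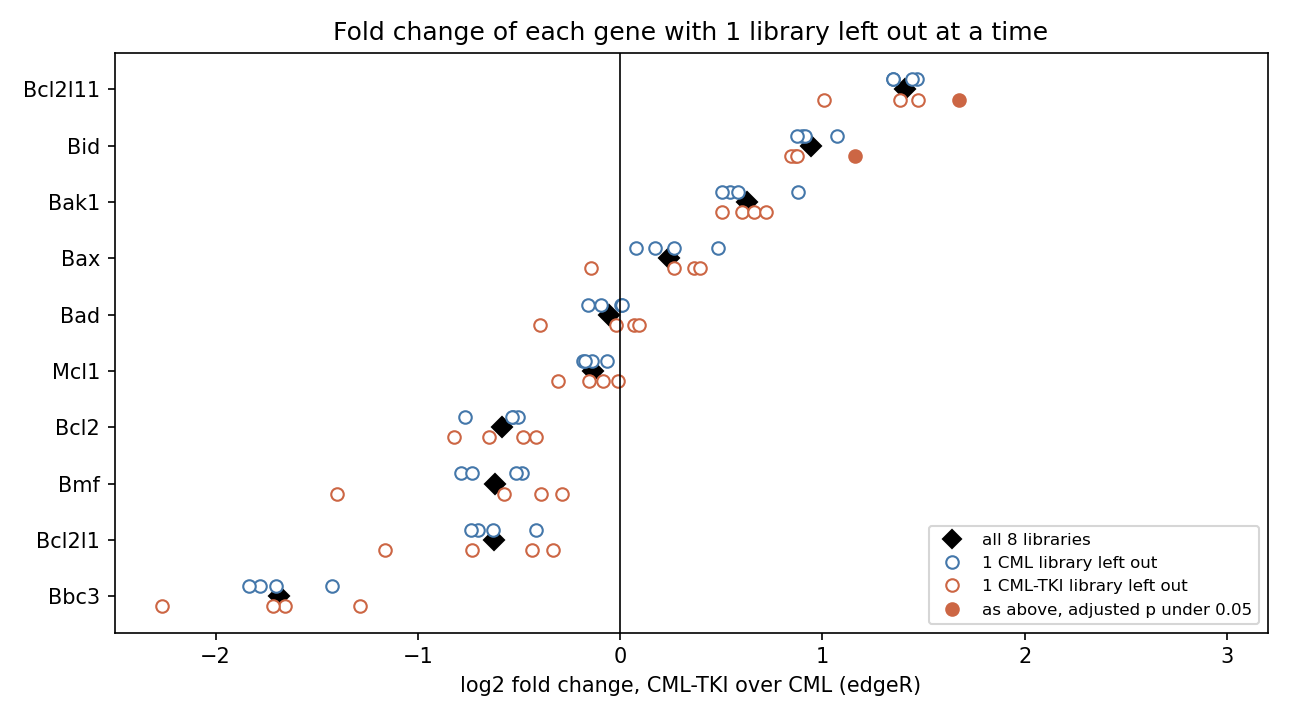
Log2 fold change (CML-TKI over CML) of each gene from edgeR with all 8 libraries (diamonds) and with 1 library left out at a time (circles, coloured by the group of the library left out, filled where the adjusted p is under 0.05). The filled circles are Bcl2l11 (1.67) and Bid (1.16), both without CML-TKI 1.

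Against the range of the 4 CML libraries, CML-TKI 1 was inside it for 3 genes, above for 1 and below for 6, and CML-TKI 2 was inside for 1, above for 6 and below for 3. CML-TKI 3 was inside for 4, above for 3 and below for 3, and CML-TKI 4 inside for 4, above for 2 and below for 4. Over all genes tested, 34.0%, 24.6%, 22.05% and 29.8% lay inside the CML range in CML-TKI 1 to 4, 34.0%, 33.5%, 34.0% and 32.7% above it and 32.0%, 41.9%, 44.0% and 37.5% below it. Within the CML group, CML 5 was the highest library for 6 genes and the lowest for 2, Bcl2 and Bid.

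To compare levels between genes, CPM was divided by the length of the longest RefSeq-matched transcript. In CML the order of the means was Mcl1 (84.2 ± 9.98 CPM per kb, SD, n = 4), Bcl2 (25.95 ± 6.73), Bcl2l1 (18.998 ± 5.45), Bak1 (14.8 ± 5.06), Bax (14.5 ± 5.11), Bid (11.2 ± 2.06), Bad (8.38 ± 1.404), Bbc3 (6.11 ± 2.20), Bcl2l11 (4.63 ± 0.65) and Bmf (1.31 ± 0.43). Neighbours from Bcl2 to Bcl2l11 in this order differed by less than the sum of their SDs, while Mcl1 stood above, and Bmf below, every other gene in every CML library. In CML-TKI the order was Mcl1 (76.7 ± 19.8 CPM per kb, SD, n = 4), Bak1 (22.8 ± 4.11), Bid (21.6 ± 7.05), Bax (17.7 ± 9.46), Bcl2 (17.4 ± 6.42), Bcl2l1 (12.7 ± 9.55), Bcl2l11 (12.4 ± 7.17), Bad (7.99 ± 3.47), Bbc3 (1.86 ± 1.34) and Bmf (0.80 ± 0.83). Here too the genes from Bak1 to Bad formed a run of neighbours within their spread. Bcl2 and Bcl2l11 have RefSeq-matched transcripts of 2841 to 7191 and 2301 to 5036 bases, and by the shortest ones Bcl2 was second in both groups and Bcl2l11 followed it in CML-TKI at 27.2 CPM per kb, so places in the middle of the order depend on the isoform assumed.

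**Figure D4:**
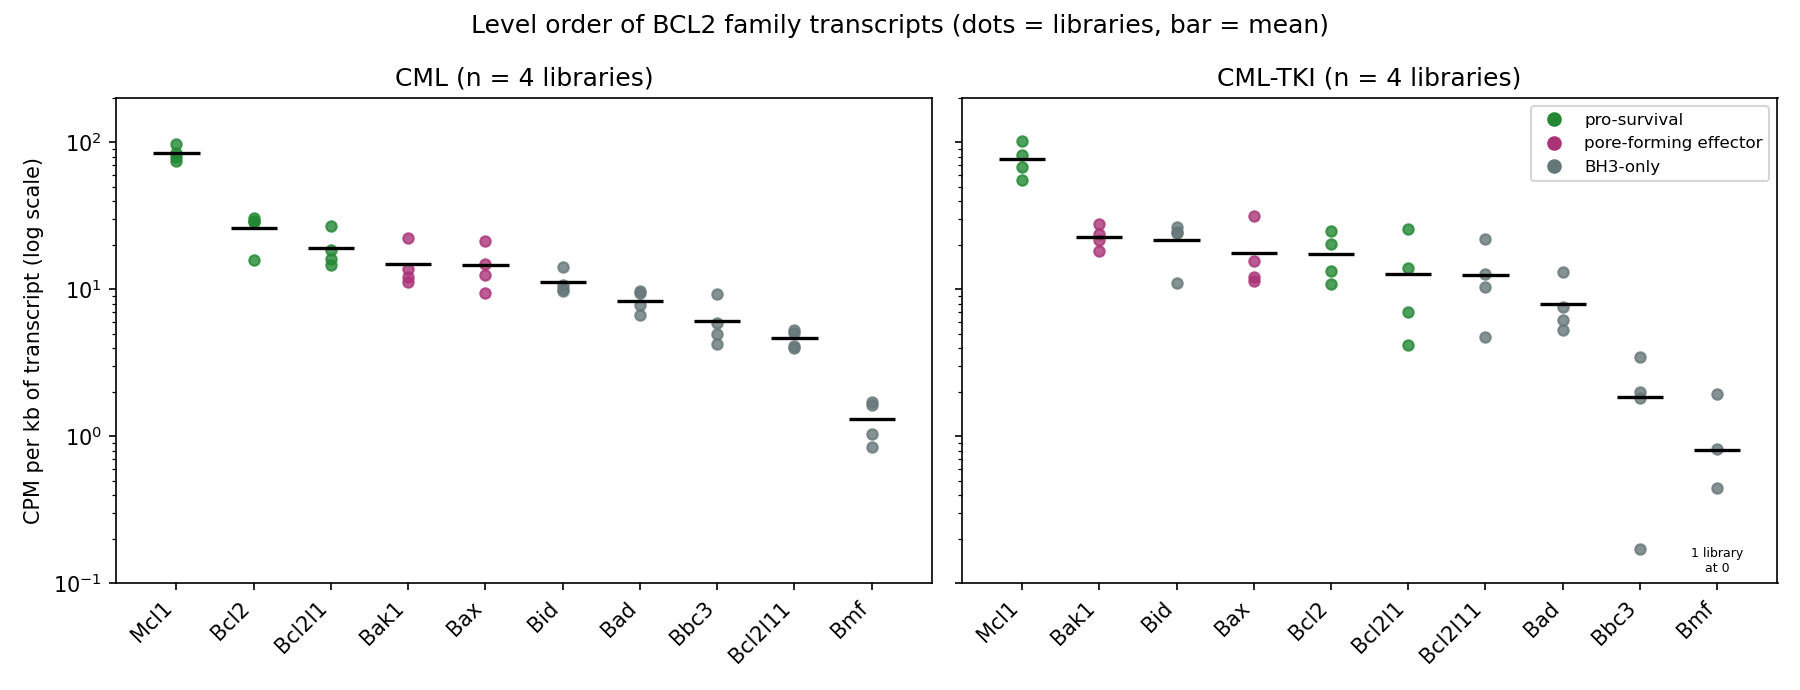
CPM per kb of the longest RefSeq-matched transcript (log axis) for the 10 genes, ordered by mean within CML (left) and CML-TKI (right). Dots are libraries, bars are means over 4 libraries. Mcl1 leads in both panels (84.2 and 76.7 CPM per kb) and the middle genes overlap.

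Ratios of estimated counts within a library need no normalization between libraries. They were computed for 5 pairs and given no test, since the pairs were chosen with earlier results of these data known. The share of other gene pairs that do not overlap was not computed, and of single genes 10.3% lay wholly above and 13.1% wholly below CML. The ratio of Bcl2l11 to Bcl2l1 was 0.422, 0.645, 0.560 and 0.372 in CML 1, 2, 3 and 5 and 0.667, 3.53, 1.68 and 4.93 in CML-TKI 1 to 4, so every treated library lay above every CML library, CML-TKI 1 by a small margin. The ratio of Bcl2l11 to Mcl1 was 0.0787, 0.0918, 0.0773 and 0.0765 in CML and 0.126, 0.183, 0.398 and 0.225 in CML-TKI, again without overlap. Its means were 0.0811 ± 0.0072 (SD, n = 4) and 0.233 ± 0.117 (SD, n = 4). The ratios of Mcl1 to Bcl2l1, Bcl2 to Bcl2l1 and Bax to Bcl2 overlapped between the groups. Mcl1 to Bcl2l1 was 4.86 to 7.24 in CML and split among the treated libraries, at 19.3 and 21.9 in CML-TKI 2 and 4 and at 5.28 and 4.23 in CML-TKI 1 and 3.

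**Figure D5:**
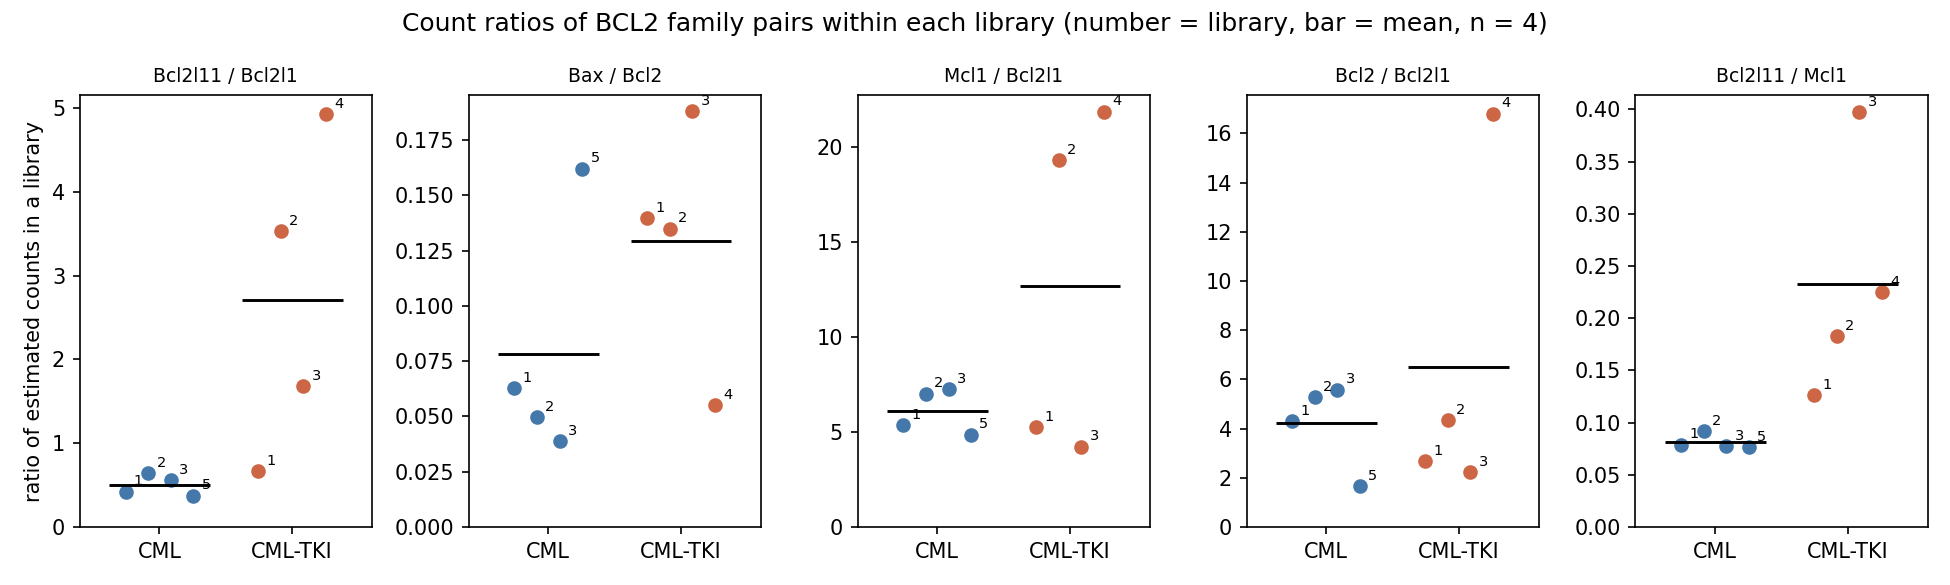
Ratio of estimated counts of 5 gene pairs within each library (points, numbered by library; bars are means of 4 libraries), each panel with its own axis from 0. The Bcl2l11 to Bcl2l1 and Bcl2l11 to Mcl1 ratios do not overlap between CML and CML-TKI (highest CML values 0.645 and 0.0918, lowest CML-TKI values 0.667 and 0.126).

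Of 15 other BCL2 family genes listed, 11 were in the table and 6 were tested, of which 0 passed edgeR's threshold in either direction and 1, Bcl2l13, had an unadjusted p under 0.05. Their median log2 fold change was -0.10. DESeq2, which filters less and gave 9 of them an adjusted p, called 1 higher, Pmaip1, and 1 lower, Bcl2l13, and limma-voom called 0 higher and 1 lower, Bok. The shares of all genes were 6.29% higher and 3.93% lower for edgeR, 25.7% at its unadjusted p, 9.75% and 7.94% for DESeq2 and 10.5% and 11.0% for limma-voom, so counts of 1 are near them. Among those with too few counts for the edgeR test was Pmaip1, which encodes the BH3-only protein NOXA, a partner of MCL1. It had estimated counts of 1, 1, 1 and 5 in CML 1, 2, 3 and 5 and of 9, 42, 6 and 11 in CML-TKI 1 to 4. CML 1, 2 and 3 were under the floor of 3 counts, so no fold is given for the DESeq2 call (adjusted p = 9.1e-04). It is named after its values were seen, as is Hrk, another BH3-only gene, which had its 21 counts in CML-TKI 1 alone.

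Downstream of the pore, 3 of 20 tested apoptosome, caspase and inhibitor genes rose and 0 fell by edgeR (6.29% and 3.93% of all genes), with a median log2 fold change of 0.22. Apaf1, the scaffold of the apoptosome, stood at 55.8 to 96.4 CPM in CML and at 119, 276, 294 and 200.3 CPM in CML-TKI 1 to 4 (log2 fold change 1.46, SE 0.31, adjusted p = 0.0168). Cycs, which encodes cytochrome c, stood at 39.8 to 51.0 CPM in CML and at 82.8, 130.5, 92.1 and 89.8 CPM in CML-TKI 1 to 4 (log2 fold change 1.16, SE 0.22, edgeR adjusted p = 0.0110). Birc5, which encodes survivin, an inhibitor of apoptosis that also acts in mitosis, stood at 9.67 to 22.5 CPM in CML and at 33.6, 55.8, 60.3 and 48.1 CPM in CML-TKI 1 to 4 (log2 fold change 1.75, SE 0.34, edgeR adjusted p = 0.0119). All 3 were above every CML library in every treated library, CML-TKI 1 included. DESeq2 and limma-voom each called 2 of the 20 lower, Casp2 and Birc2, against 7.94% and 11.0% of all genes. The edgeR calls were sensitive to single libraries: without CML 1 or without CML 3, 1 of the 3 passed. Casp9, the caspase that the apoptosome activates, was at 29.8 ± 7.15 CPM in CML and 23.9 ± 7.81 CPM in CML-TKI (SD, n = 4 each, edgeR adjusted p = 0.605).

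In the death receptor pathway, which joins the family through Bid, 1 of 8 tested genes fell by edgeR and 0 rose (3.93% and 6.29% of all genes). It was Tnfsf10, which encodes the death ligand TRAIL, with 54.3 to 90.1 CPM in CML and 30.4, 11.2, 17.5 and 5.72 CPM in CML-TKI 1 to 4 (log2 fold change -2.27, SE 0.47, edgeR adjusted p = 0.0144). It passed with any single library left out, at -2.88 without CML-TKI 1, and was not called with CML 1 to 3 summed to 1 library (edgeR adjusted p = 0.176). Casp8, the enzyme that cleaves BID, was at 55.2 ± 3.59 CPM in CML and 66.7 ± 26.2 CPM in CML-TKI (SD, n = 4 each, edgeR adjusted p = 0.589).

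Of 12 tested p53 pathway genes, which share with Bbc3 a known link to p53, 1 rose and 1 fell by edgeR, near the 6.29% and 3.93% of all genes, and their median log2 fold change was -0.0021. Cdkn1a, the p21 cell cycle inhibitor, stood at 1.63 to 3.67 CPM in CML and at 46.7, 26.03, 8.77 and 10.4 CPM in CML-TKI 1 to 4 (log2 fold change 3.27, SE 0.63, edgeR adjusted p = 0.0110). Sesn1, a stress-induced regulator of mTORC1, stood at 79.1 to 91.8 CPM in CML and at 35.3, 15.5, 18.6 and 33.0 CPM in CML-TKI 1 to 4 (log2 fold change -1.68, SE 0.30, edgeR adjusted p = 0.00826). Both passed with any single library left out, Cdkn1a at 2.66 without CML-TKI 1, and neither was called with CML 1 to 3 summed (edgeR adjusted p = 0.163 for Cdkn1a and 0.131 for Sesn1). Trp53 was at 69.1 ± 17.1 CPM in CML and 41.7 ± 17.4 CPM in CML-TKI (SD, n = 4 each, edgeR adjusted p = 0.236).

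Among 24 tested genes for transcription factors, kinases and binding proteins that act on family members, 1 rose and 1 fell by edgeR, against 6.29% and 3.93% of all genes, with a median log2 fold change of -0.14. Dynll1, the dynein light chain that holds BIM at microtubules, stood at 30.0 to 63.5 CPM in CML and at 143, 98.9, 89.9 and 79.6 CPM in CML-TKI 1 to 4 (log2 fold change 1.24, SE 0.29, edgeR adjusted p = 0.0269), and was not called without CML 1, 2 or 3, without CML-TKI 2, or with library totals without Rn45s (edgeR adjusted p = 0.0506). Stat5a, a driver of Bcl2l1 and Mcl1 transcription in blood cells, had an edgeR adjusted p of 0.0108 and a log2 fold change of -1.49 with no overlap between groups. It passed with any single library left out and was not called with CML 1 to 3 summed (edgeR adjusted p = 0.105). Foxo3, a known activator of Bcl2l11, stood at 162 to 193 CPM in CML and at 93.6, 84.9, 76.7 and 145 CPM in CML-TKI 1 to 4, below CML in every library, with a log2 fold change of -0.78 that missed the threshold of edgeR (adjusted p = 0.0649). DESeq2 called 6 of 24 lower (Stat5a, Foxo3, Foxo4, Akt2, Pim2 and Dynll2), against 7.94% of all genes. It called 2 higher, Dynll1 and Ywhaz, against 9.75%. With limma-voom 3 were called lower (Stat5a, Foxo3 and Akt2) and 1 higher (Dynll1), against 11.0% and 10.5% of all genes. The adjusted p of Foxo3 was 0.00797 by DESeq2 and 0.0371 by limma-voom.

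The cells behind these libraries were not alike in other markers, and in bulk RNA fewer cells of a type and less RNA per cell cannot be told apart. Summed over the marker lists, granulocyte genes were at 152 to 254 CPM in CML and 1429 to 8369 CPM in CML-TKI (9 of 10 tested called higher), monocyte and macrophage genes at 18.1 to 41.4 and 751 to 4036 CPM (7 of 8 higher), stem cell genes at 1561 to 1713 and 47.1 to 429 CPM (5 of 9 lower) and megakaryocyte genes at 1261 to 1524 and 62.3 to 611 CPM (2 of 7 lower). Of all genes tested, edgeR called 6.29% higher and 3.93% lower. In the megakaryocyte list Vwf, the largest part of the CML sum (mean 781 CPM in CML, 101 CPM in CML-TKI), was not called. Ppbp in that list was higher (log2 fold change 1.93), also without a call. Lymphoid genes summed to 0.386 to 2.04 and 7.03 to 192 CPM with 0 tested, and Cd3e and Dntt were at 0 in every CML library. Of the gate genes Kit and Slamf1 (CD150) were called lower and Cd48 higher, and Ly6a (SCA1) and Flt3 were not called. Slamf1 was at 29.01 to 37.7 CPM in CML and 0.620 to 6.58 CPM in CML-TKI, and Cd48 at 3.86 to 6.40 and 39.9 to 178 CPM. For CD150 and CD48 alone, the CML libraries went against the shared sort label at the RNA level and the CML-TKI libraries did not. Kit, positive in that label, was at 764 to 1023 CPM in CML and 194 to 290 CPM in CML-TKI. Ly6a, also positive, was at 33.2 to 38.5 CPM in CML and at 44.3, 9.61, 8.77 and 1.56 CPM in CML-TKI 1 to 4. Flt3, negative there, was at 15.7 to 17.2 CPM in CML and at 13.7, 7.75, 18.6 and 63.2 CPM in CML-TKI 1 to 4. CML-TKI 1, the library inside the CML range for Bcl2l11 and Bid, had the lowest granulocyte sum (1429 CPM) and the highest stem cell sum (429 CPM) of its group and stood at -19.2 on the first principal component, with the other treated libraries at 70.1 to 119 and CML at -74.4 to -69.3. The part of cell composition in the values of the 10 genes was not tested.

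Depth also differed. Total estimated counts were 4939644 to 8620101 in CML and 1041552 to 5104268 in CML-TKI, with CML-TKI 3 the shallowest, so that the floor of 3 counts was 0.409 to 0.580 CPM in CML and 0.570 to 3.29 CPM in CML-TKI. In CML-TKI 3 the estimated counts of Bbc3, Bmf, Bad and Bax were 3, 0, 7 and 25. The ribosomal RNA gene Rn45s took 20.2% to 38.3% of counts in CML and 9.23% to 22.5% in CML-TKI, with CML 5 the highest.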

How the data were processed

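Bulk RNA-seq of sorted mouse bone marrow cells was analysed in 4 CML and 4 CML-TKI libraries. The authors deposited 1 table of estimated counts per gene, not normalized; the submitters' processing notes name STAR 2.6.1d, Partek 8.0 and the mm10 build, with Nextera XT libraries, a kit that does not mark strand. Columns were matched to samples by title; the column CML 5 was assigned to its group only. Counts were rounded to whole numbers and tested in edgeR 4.0.16 (R 4.3.3; filterByExpr with a minimum count of 10 and total of 15, TMM, robust quasi-likelihood fit on all 8 libraries, no covariate), with Benjamini-Hochberg adjustment over 11937 genes at 0.05. CPM uses effective library sizes. Intervals and the floor of 3 counts cover counting or fitted error only. The pipeline was tested on simulated data. DESeq2 1.42.0, limma-voom 3.58.1, other normalizations, filters and thresholds, leaving out each library, a replicate block and equal depth were alternatives. CML 1, 2 and 3 differed from each other by more than sampling noise (chi-square per degree of freedom 3.90 to 5.93), so they are not identical data, but this does not show that they are separate animals. They lay far closer together than other pairs (93.7 to 96.8 against CML 5, 26.3 to 65.5 among CML-TKI libraries). They were counted as 3 replicates, with their sum as an alternative. The members, gene lists and tests were chosen with earlier results of these data known. Named genes are the 10 members, genes past the threshold in each list (up to 6 a list) and the gate genes. Other listed genes (Bcl2l13, Bnip3l, Pmaip1, Bok, Hrk, Casp2, Casp8, Casp9, Birc2, Trp53, Foxo3) were chosen after their values were seen. So were Foxo4, Akt2, Pim2, Dynll2 and Ywhaz, and the marker genes Vwf, Ppbp, Cd3e and Dntt. Promoters and coordinates are from RefSeq (all 10 members matched). Transcript lengths and exon overlaps are from GENCODE M21. Transcripts per gene were not separated in the counts.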

Additional observations from a re-analysis of the deposited data

Results flagged for a closer look

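In 20 checks of a gene's log2 CPM within a group of 4 libraries, 2 had a library whose gap to its nearest neighbour passed Dixon's 95% limit for 4 samples, as a share of the group's range. Chance gives about 1 in 20 where the libraries of a group are independent, which is not known here. For Bcl2 it was CML 5, at 115 CPM with the other CML libraries at 206 to 218 CPM (gap 0.908 of the range). For Bid it was CML-TKI 1, at 24.3 CPM with the other CML-TKI libraries at 52.8 to 58.1 CPM (gap 0.890 of the range). Over all genes the other CML libraries lay far closer to each other than to CML 5. The Bcl2 check therefore cannot tell an aberrant library from that grouping.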

How the results depend on the processing

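Of the 10 genes 0 were called in either direction under other normalizations or filters, unrounded counts, a threshold of 0.01, equal depth, or CML 1 to 3 summed. With DESeq2, 2 were called higher (Bcl2l11, adjusted p = 0.0154; Bid, adjusted p = 0.0462), and 2 at an adjusted p of 0.1 by edgeR, where all genes gave 1095 higher. With limma-voom 3 were called higher (Bcl2l11, Bid, and Bak1 with an adjusted p of 0.0361) and 2 lower (Bcl2, 0.0469; Bcl2l1, 0.0499). Over all genes DESeq2 called 1334 higher and 1086 lower and limma-voom 1249 and 1314, against 751 and 469. With 1 library left out, 0 to 2 of the 10 genes were called higher and 0 lower, the 2 without CML-TKI 1, a fit in which all genes gave 1171 higher and 1333 lower. Bcl2l11, Bid, Bak1, Bcl2, Bcl2l1, Bbc3 and Bmf kept their direction under every alternative that gave a value. The log2 fold change of Bax ranged from -0.15 to 0.49 with a library left out and that of Bad from -0.40 to 0.0907. Bad was at 0.0256 with library totals, 0.0666 in the 6 libraries numbered 1 to 3 without a block and 0.35 at equal depth. Mcl1 was at 0.0092 in the same 6 libraries. The causes were not tested. Bmf had no value with a minimum count of 30 or at equal depth. Library totals without Rn45s moved the median of all genes to -0.14 and limma-voom to -0.11, with Bcl2l11 at 1.24 and 1.23 and Bbc3 at -1.81 and -1.91 in these fits.

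The replicate numbers 1 to 3 occur in both groups, but nothing states that they pair libraries, and the correlation of same-numbered deviations was -0.04, 0.10 and 0.09, so they were taken as names. With the number as a block in those 6 libraries 0 of the 10 genes were called (Bcl2l11 1.31, edgeR adjusted p = 0.247), and all genes gave 150 higher and 43 lower, against 400 and 189 without the block.

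With the block, Cycs, Birc5, Tnfsf10, Cdkn1a, Sesn1 and Dynll1 were not called (edgeR adjusted p = 0.0694 for Birc5 to 0.146 for Cdkn1a), and Apaf1 was called neither with it (0.128) nor in the same 6 libraries without it (0.0757). Their folds stayed near, at 1.28 for Apaf1, 1.15 for Cycs and 2.04 for Birc5 with the block. With CML 1 to 3 summed to 1 library, 0 of the 8 called listed genes passed (edgeR adjusted p = 0.105 for Stat5a to 0.314 for Dynll1), and all genes gave 102 higher and 20 lower. The lists' counts changed most with DESeq2, which called 6 of 24 genes acting on members lower in place of 1. Over all genes DESeq2 called 7.94% lower and edgeR 3.93%. Without CML-TKI 1, edgeR called 1 of 8 other BCL2 family genes higher and 1 lower. In the same fit 2 of 14 p53 pathway genes were called higher and 3 of 24 genes acting on members lower. Over all genes that fit called 9.64% higher and 11.0% lower. Depth limits Bbc3 and Bmf, at or under the floor in CML-TKI 2 or 3.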
